A study of Mus musculus with 8 samples.

Results

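Small RNAs of mouse bone marrow-derived macrophages (BMDMs) were compared between libraries of 25–40 nt size-selected RNA and libraries of total RNA, all sequenced on the SOLiD platform. These were 4 of the 8 samples of the series. The members described are the annotated small RNAs, called features here, with at least 10 reads per 1000000 reads on listed features (RPM) in 1 or more of the 4 libraries, and 1228 of 2878 listed features passed that minimum. The cells came from 10-week-old male C57BL/6J mice and were kept for 36 h either in control medium or in a medium without Macrophage-Colony Stimulating Factor (M-CSF), which deprives macrophages of their survival factor. Each condition had 1 library of total RNA and 1 library of size-selected RNA, so that a control pair and a withdrawal pair could be formed, with 2 libraries a side. The methods describe a gel-purified 25–40 nt fraction, which the labels call small RNA, and 1 biological replicate per condition. Whether both RNAs of a pair came from the same culture is not given in the sources used here. The labels give an RNA integrity number of 8.4 and 7.5 for the total RNA of control and deprived cells, and of 2.7 and 2.6 for their size-selected RNA. In all 4, the amplified library products were also cut to 1 size range. The size-selected libraries were made to look for cleaved forms of the RNY RNAs.

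The listed features differ in the length of the RNA they are annotated for. Mature miRNAs are cut from a hairpin precursor, one from each arm (5p and 3p), and guide Argonaute proteins to target RNAs through their seed. The Y RNAs (RNYs) are short polymerase III transcripts bound by the Ro60 protein and are known to be cut into small fragments in apoptotic cells. Transfer RNAs are also cut under stress, often in the anticodon loop, while the small nuclear RNAs (snRNAs) build the spliceosome and the small nucleolar RNAs (snoRNAs) guide the modification of ribosomal and spliceosomal RNA.

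The mature miRNAs on which the results turn are shown first, 5′ to 3′, with the seed (bases 2 to 8) in capitals. Their sequences are those of RefSeq (GRCm38.p6), except for miR-23b-3p, whose sequence is from the deposited tables. The let-7 5p arms, which share the seed GAGGUAG, and the next 4 miRNAs were higher in size-selected RNA. The pair with the seed UCACAUU was also higher, while let-7i-3p, miR-21a-5p and miR-22-3p were lower.
let-7c-5p: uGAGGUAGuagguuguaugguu
let-7a-5p: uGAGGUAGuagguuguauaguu
let-7f-5p: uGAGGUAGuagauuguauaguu
let-7i-5p: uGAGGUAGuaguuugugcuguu
miR-221-3p: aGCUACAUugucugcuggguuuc
miR-146a-5p: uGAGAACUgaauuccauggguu
miR-423-5p: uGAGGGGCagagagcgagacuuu
miR-1981-5p: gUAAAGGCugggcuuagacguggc
miR-23a-3p: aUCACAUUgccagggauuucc
miR-23b-3p: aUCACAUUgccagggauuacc
let-7i-3p: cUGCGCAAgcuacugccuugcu
miR-21a-5p: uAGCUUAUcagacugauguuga
miR-22-3p: aAGCUGCCaguugaagaacugu

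Of the longer RNAs, both mouse Y RNAs are shown because the fraction was made for them, and 1 RNA of 2 classes with large differences is shown beside them. These are Snord110, a C/D box snoRNA, with its C box (TGATGA) and D box (CTGA) in capitals, and Gm25419, a copy of the U3 snoRNA. The sequences are those of the GENCODE transcripts (release 21 for mouse, GRCm38), read 5′ to 3′ and written as DNA. Their coordinates are chr6:47788069-47788180 on the minus strand for RNY1, chr6:47781624-47781725 on the plus strand for RNY3, chr2:130275506-130275573 on the plus strand for Snord110 and chr4:55299655-55299845 on the minus strand for Gm25419.
RNY1: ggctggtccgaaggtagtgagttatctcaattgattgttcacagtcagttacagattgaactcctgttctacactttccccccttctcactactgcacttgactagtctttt
RNY3: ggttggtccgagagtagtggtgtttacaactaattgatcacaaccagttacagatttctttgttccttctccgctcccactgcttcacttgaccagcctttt
Snord110: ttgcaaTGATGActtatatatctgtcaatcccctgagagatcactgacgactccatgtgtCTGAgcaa
Gm25419: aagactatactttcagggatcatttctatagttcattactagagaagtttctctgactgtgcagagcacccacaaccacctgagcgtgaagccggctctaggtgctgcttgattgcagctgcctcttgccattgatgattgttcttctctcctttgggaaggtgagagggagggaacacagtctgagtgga

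The libraries held from 4039837 to 12178454 reads on listed features, the size-selected library of deprived cells being the shallowest and the total RNA library of the same cells the deepest. RPM is a share of reads, so that no absolute amount was measured, and in these bulk samples fewer cells of a type and less RNA per cell cannot be told apart. Of 6 miRNAs listed as myeloid or blood cell miRNAs, 5 had at least 10 RPM. The most abundant was miR-21a-5p, which held 359445 of their summed 385403 RPM in control total RNA. The next were miR-146a-5p and miR-223-3p. miR-142a-5p had 140 to 675 RPM, while miR-142a-3p, a defining miRNA of blood cells, had 0.112 to 3.71 RPM. In the 4 Ion Proton libraries of the series miR-142a-3p had 1102 to 1807 counts, so that its low SOLiD level does not show that these cells lack it. Of 11 miRNAs that mark other cell types, 9 were listed, 8 had at least 10 RPM and none was at 0 in every library. Their summed level was 5166 RPM in control total RNA, 4214 RPM in total RNA after withdrawal, 3924 RPM in control size-selected RNA and 6310 RPM in size-selected RNA after withdrawal. The erythroid miR-451a held most of it, with 3227 and 2659 RPM in total RNA and 2394 and 3988 RPM in size-selected RNA of control and deprived cells. Relative to control total RNA, the 8 markers were at 0.788 to 0.839 of their level in total RNA of deprived cells. They were at 0.730 to 0.832 of it in control size-selected RNA, so that they kept nearly the same proportion to each other in these libraries. In size-selected RNA of deprived cells they spread more, from 0.899 to 1.43 of it. Their part in the results on miRNAs was not tested.

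The composition of the libraries by type of RNA was compared first. Mature miRNAs took 82.0% of the reads in control total RNA (95% interval 81.97 to 82.04%) and 87.2% in control size-selected RNA (87.20 to 87.25%). After M-CSF withdrawal they took 41.1% of total RNA reads and 45.0% of size-selected reads. Their share was thus somewhat higher in the size-selected library of each pair. The widest interval of any type was that of the last share, from 44.93 to 45.03%. All intervals are exact Clopper-Pearson intervals and cover counting error only, and 2 libraries against 2 cannot reach a p under 0.33 in an exact two-sided permutation test.

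The annotated mature miRNAs are shorter than the selected window. Among the 313 with a single known sequence, 306 were of 19 to 24 nt, and these took 85.5% of the reads in control size-selected RNA and 43.7% after withdrawal. The 7 mature miRNAs of 25 or 26 nt took 0.0472% and 0.0313%, against 0.0304% and 0.0249% in total RNA. The lengths of the reads themselves are not in the table and were not analysed here. The reads of the run were shorter than most of the other annotated RNAs, so that a read counted there covers only a stretch of the RNA.

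The other types differed in direction. snoRNAs took 4.04% of reads in total RNA and 1.17% in size-selected RNA of control cells, and 6.6% and 3.38% after withdrawal, so that the selected library was lower in each pair. snRNAs took 0.748% and 0.953% of total RNA reads and 0.135% and 0.465% of size-selected reads, 5.56 and 2.05 times less. Features typed misc_RNA, the type that holds the Y RNAs, went the other way, with 1.18% and 5.83% in total RNA and 1.88% and 8.0% in size-selected RNA. The share of tRNAs was close within each pair, at 10.2% and 8.81% in control cells and 42.2% and 41.4% after withdrawal. For rRNA and mitochondrial tRNA the pairs differed in size: rRNA was 3.78 times lower in the selected control library and 1.04 times lower after withdrawal, while mitochondrial tRNA was 1.33 and 2.74 times lower.

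**Figure D1:**
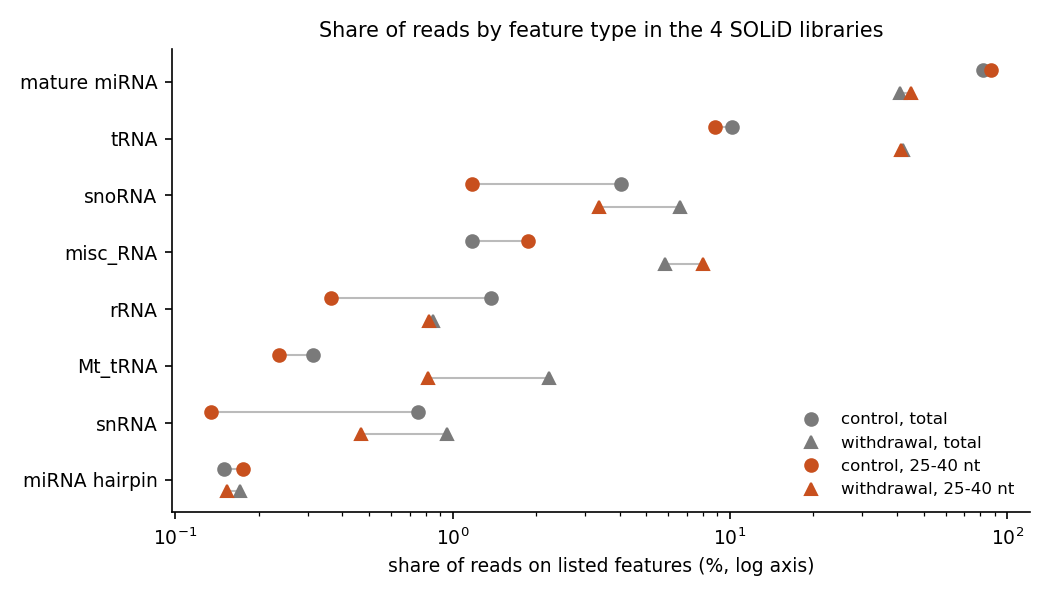
Share of reads on listed features (percent, log axis) by type of RNA in the 4 SOLiD libraries. Circles are control cells, triangles are cells deprived of M-CSF, grey is total RNA, orange is 25–40 nt RNA, and a line joins the libraries of a pair. snoRNA and snRNA lie to the left of their total RNA library in both pairs, and misc_RNA lies to the right.

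Single features were tested with limma on log2(RPM + 1), with terms for treatment and fraction and Benjamini-Hochberg adjustment over the 1228 features. Of these, 85 features (6.92%) were higher and 191 (15.6%) were lower in size-selected RNA at an adjusted p under 0.05. The model left 1 residual degree of freedom, and the standard errors came almost wholly from the spread that features of a like level shared. Leaving out any 1 library, with the treatment term dropped, left 0 calls in limma, where 4 to 47 features were higher and 37 to 108 lower at an unadjusted p under 0.05. As a description without a test, 110 features (8.96%) were at least 2-fold higher and 194 (15.8%) at least 2-fold lower in both pairs. Of the features called higher, 22 reached the minimum of 10 RPM only in size-selected RNA, and of those called lower, 57 reached it only in total RNA, so that these had to differ to be tested. Among the 276 called features, 275 had the same direction in both pairs and 228 also passed the 2-fold rule. Over all 1228 features the median log2 ratio was -0.27 in the control pair and 0.04 in the withdrawal pair, 419 were higher in both pairs, 481 were lower in both and 328 went opposite ways. When each library was centred on its median feature, which moved log2 ratios up by 0.62 in the control pair and by 0.13 in the withdrawal pair, 122 features were called higher and 113 lower. Medians of groups near 0, such as those given below for the let-7 3p arms, the H/ACA box snoRNAs, the 5S rRNA and the donors of 5′ tRNA fragments, cross 0 in 1 pair under that shift. Across features, which share the 4 libraries, the log2 ratios of the pairs had a Pearson r of 0.70 (n = 1228).

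**Figure D2:**
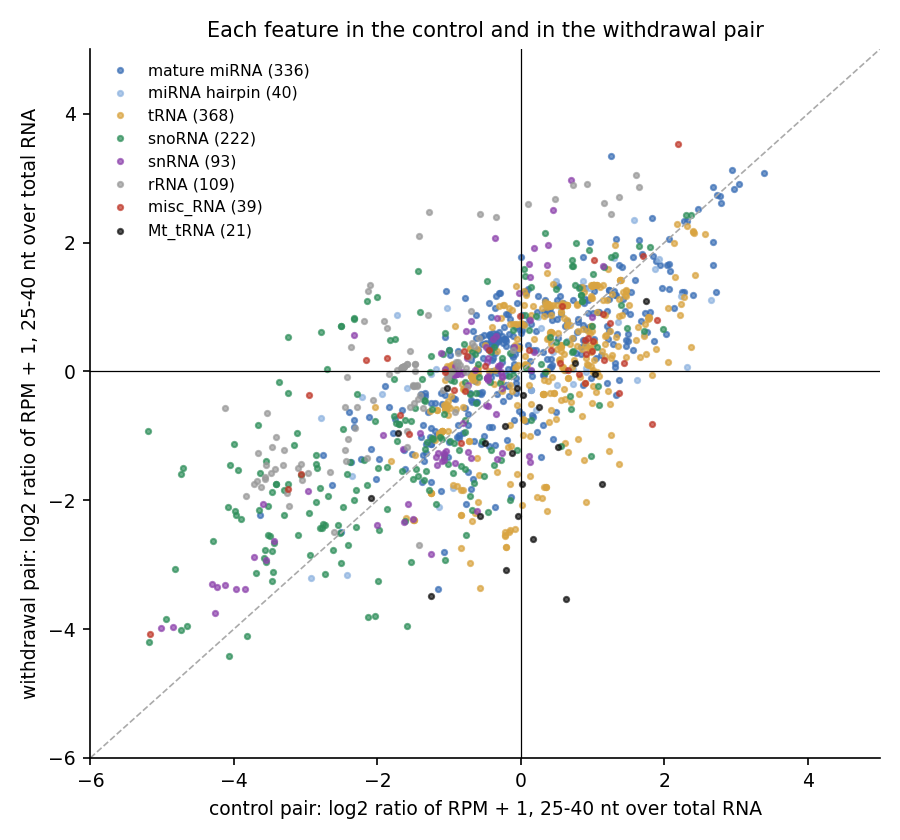
Log2 ratio of RPM + 1 in 25–40 nt RNA over total RNA, for each of the 1228 features, in the control pair (x axis) and in the withdrawal pair (y axis), coloured by type. The dashed line marks equal ratios. Many snoRNAs and a group of snRNAs reach below -3 on the x axis, and the highest mature miRNAs lie near 3 on both axes.

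RNY1 and RNY3, the RNAs for which the fraction was made, were both higher in size-selected RNA. RNY1 had 4341 RPM in control total RNA, 36688 RPM in total RNA after withdrawal, 8150 RPM in control size-selected RNA and 44128 RPM in size-selected RNA after withdrawal. The selected library was thus higher in each pair, by 1.88-fold in control cells and 1.2-fold after withdrawal. RNY3 had 1588 and 4214 RPM in total RNA and 5141 and 14515 RPM in size-selected RNA of control and deprived cells, 3.24-fold and 3.44-fold higher. Both RNAs passed the test, RNY3 with a log2 ratio of 1.74 (SE 0.32, adjusted p = 3.3e-06) and RNY1 with 0.59 (SE 0.22, adjusted p = 0.032). The ratio of RNY3 was nearly the same in both pairs (1.69 and 1.78 on the log2 scale), while that of RNY1 was 0.91 and 0.27. The call of RNY1 was lost in 9 of 11 alternatives that kept the treatment term, with adjusted p from 0.057 to 0.469. In the fits with 1 library left out, which also drop the treatment term and so do not separate fraction from treatment, its value ranged from -0.95 to 2.13. In edgeR its adjusted p was 0.185, and that of RNY3 was 0.0016.

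Several listed features are copies of RNY1, and their reads cannot be fully told apart from those of RNY1. RNY1 and RNY3 themselves are 71.4% identical over an alignment of 112 columns, gaps included. With RNY1 there were 11 features with at least 80% identity over at least 80% of its length. Their median log2 ratio was 1.00 in the control pair and 0.27 in the withdrawal pair, against -0.27 and 0.04 over all features, and RNY1 was the only one called. The copy with the most reads, Gm24372, had 1155 and 7225 RPM in total RNA and 2217 and 10336 RPM in size-selected RNA, with an adjusted p of 0.113. Gm24379, which is outside this class and aligns with RNY1 over only 38 columns at 89.5% identity, had 376 and 3751 RPM in total RNA and 752 and 4694 RPM in size-selected RNA (adjusted p = 0.298). In both of these features the selected library had the higher value in each pair.

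Other RNAs typed misc_RNA divided. Rn7s1, a 7SL RNA of the signal recognition particle, had 1173 and 1302 RPM in total RNA and 696 and 1542 RPM in size-selected RNA, lower in one pair and higher in the other (adjusted p = 0.728). Rmrp, the RNA of the RNase MRP complex, had 897 and 1054 RPM in total RNA and 635 and 1112 RPM in size-selected RNA (adjusted p = 0.789). Rpph1, the RNA subunit of RNase P, fell from 360 and 180 RPM to 42.1 and 59.2 RPM (adjusted p = 0.0013). The 7SK RNA Rn7sk, a regulator of transcription elongation, fell from 150 and 96.4 RPM to 18.5 and 74.8 RPM (adjusted p = 0.030). Rn7sk was not called in edgeR (adjusted p = 0.091). An unnamed RNA (ENSMUST00000175246, chr4:119406034-119406240) fell most among RNAs of this type, from 116 and 83.1 RPM to 2.24 and 3.96 RPM. The vault RNA Vaultrc5, part of the vault particle, had 136 and 398 RPM in total RNA and 134 and 725 RPM in size-selected RNA, and was not called. Of the 39 features of this type tested, 3 were called higher and 4 lower, shares of 7.69% and 10.3% beside 6.92% and 15.6% of all features. The third one higher, beside RNY1 and RNY3, was Gm25271, which reached the minimum only in size-selected RNA of deprived cells, with 0.346 and 0.411 RPM in total RNA and 5.16 and 15.3 RPM in size-selected RNA.

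Mature miRNAs were 336 of the 1228 features, 44 of them called higher and 20 lower (13.1% and 5.95%, beside 6.92% and 15.6% of all features), with median log2 ratios of -0.10 in the control pair and 0.40 in the withdrawal pair. The clearest group was the let-7 family, whose members repress genes of proliferation and are cut from several hairpins. All 9 of its listed 5p arms were called higher in size-selected RNA. let-7c-5p had 1872 RPM in control total RNA, 831 RPM in total RNA after withdrawal, 19586 RPM in control size-selected RNA and 7004 RPM in size-selected RNA after withdrawal. Both selected libraries were thus far above both total RNA libraries, by 10.5-fold in the control pair and 8.43-fold in the withdrawal pair (log2 ratio 3.23, SE 0.35, adjusted p = 1.2e-17). let-7a-5p had 3562 and 1772 RPM in total RNA and 27967 and 12651 RPM in size-selected RNA. let-7f-5p, the most abundant of the family, had 15968 and 6395 RPM in total RNA and 66726 and 26704 RPM in size-selected RNA. The calls of let-7a, let-7c and let-7f held in all 11 alternatives that kept the treatment term. let-7k, which shares the seed but is annotated without an arm, rose from 15.2 and 7.23 RPM to 77.4 and 40.6 RPM.

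The 5p arms of the family differed from its 3p arms, which come from the same hairpins. The 5p arms had a median log2 ratio of 2.47 in the control pair and 2.52 in the withdrawal pair, with a range of 1.79 to 3.39 and of 0.92 to 3.07. The 9 listed 3p arms had medians of -0.27 and -0.28, and 2 of them, let-7i-3p and let-7g-3p, were called lower. let-7i-3p fell from 1060 and 285 RPM in total RNA to 170 and 82.7 RPM in size-selected RNA, while let-7i-5p rose from 783 and 626 RPM to 2715 and 1184 RPM. The 5p arms together took 3.21% and 2.86% of mature miRNA reads in total RNA and 16.3% and 12.9% in size-selected RNA. In the 4 Ion Proton libraries of the series, made from unselected RNA with another kit, the same 9 arms took from 33.2% to 36.3% of mature miRNA counts.

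**Figure D3:**
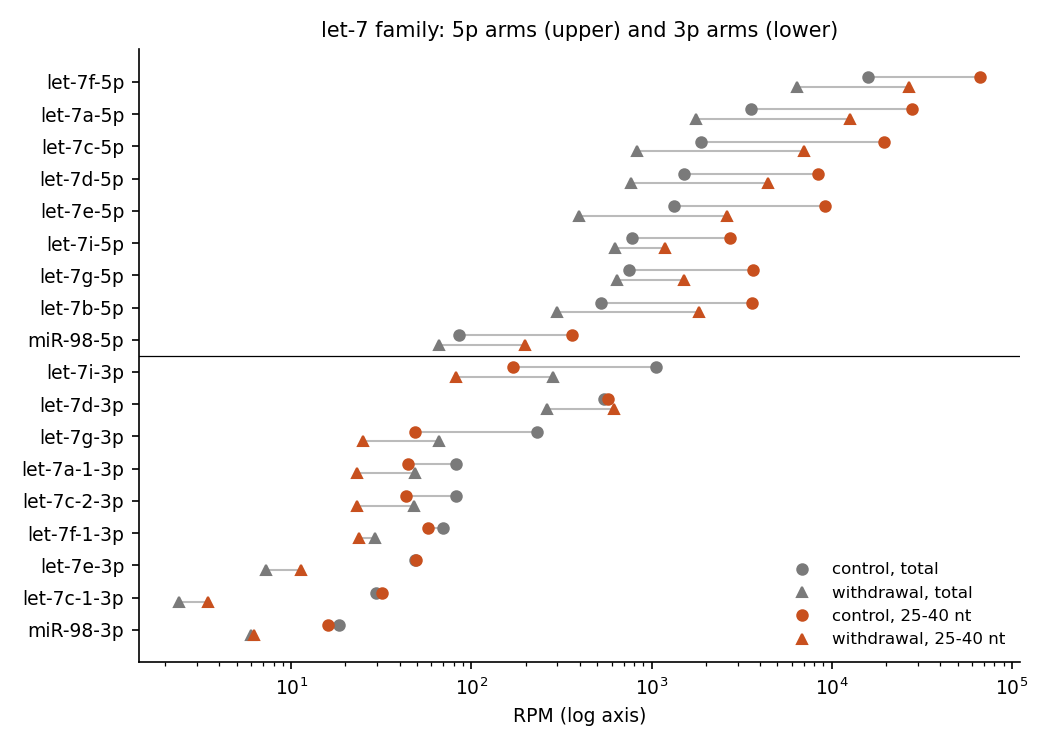
RPM (log axis) of the let-7 family in the 4 SOLiD libraries, 5p arms above the line and 3p arms below it. Circles are control cells, triangles are cells deprived of M-CSF, grey is total RNA and orange is 25–40 nt RNA. For all 9 5p arms the orange point lies to the right of the grey point in both pairs, while let-7i-3p and let-7g-3p lie to the left.

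A like difference between arms was present in some other hairpins. Both arms were tested for 74 hairpins, and the 5p arm had the higher log2 ratio in both pairs for 34 of them, the 3p arm for 20, with 20 mixed. Outside the 5 let-7 hairpins among them, these counts were 29, 20 and 20 of 69, and the median difference between arms was 0.06. miR-22 held one of the largest differences. Its 5p arm, the less abundant, rose from 656 and 501 RPM to 2506 and 1581 RPM (adjusted p = 0.0018), while miR-22-3p fell from 111801 and 103800 RPM to 68732 and 29259 RPM. miR-652 was the opposite case, since miR-652-5p fell from 90.4 and 19.6 RPM to 20.4 and 7.92 RPM and miR-652-3p had 4919 and 4836 RPM in total RNA and 12170 and 5292 RPM in size-selected RNA without being called. Over all features of each arm, 28 of 151 5p arms (18.5%) were called higher and 7 (4.64%) lower. Of 141 3p arms, 12 (8.51%) were called higher and 10 (7.09%) lower. Beside these stand 13.1% and 5.95% of mature miRNAs, and 6.92% and 15.6% of all features. Without the let-7 family, 13.4% of 5p arms were called higher and 4.93% lower, and 9.09% and 6.06% of 3p arms. Of mature miRNAs outside the let-7 5p arms, 10.7% were called higher and 6.12% lower.

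The abundant macrophage miRNAs moved in both directions. miR-21a-5p, the most abundant feature of both total RNA libraries, fell from 359445 and 131368 RPM to 180200 and 61224 RPM, which is 1.99 and 2.15 times lower. Its share of mature miRNA reads was 43.8% and 31.8% in total RNA and 20.6% and 13.6% in size-selected RNA. Its limma adjusted p of 8.2e-30 rested on the small spread assumed at this level, and in edgeR its adjusted p was 0.096. miR-22-3p fell by 1.26 on the log2 scale (SE 0.12, adjusted p = 5.0e-23), with an adjusted p of 0.067 in edgeR. Both calls were lost when libraries were centred on the median feature or scaled to reads outside miRNA, without the intensity trend and in DESeq2. miR-24-3p and miR-27a-3p, from the clusters that also hold the miR-23 pair, were called lower, miR-27a-3p from 4845 and 2743 RPM to 1688 and 1122 RPM.

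miR-221-3p, which is encoded beside miR-222-3p on the X chromosome, rose from 43949 and 7843 RPM in total RNA to 104548 and 79823 RPM in size-selected RNA. The increase was 2.38-fold in the control pair and 10.2-fold in the withdrawal pair (log2 ratio 2.30, SE 0.15, adjusted p = 1.6e-47). This SE and limma p rested on the small spread assumed at this level rather than on the difference between its pairs. In edgeR the adjusted p of miR-221-3p was 0.0013. miR-222-3p rose from 5639 and 3528 RPM to 10469 and 8673 RPM. miR-146a-5p, a regulator of inflammatory signalling in macrophages, rose from 13197 and 6550 RPM to 42421 and 23276 RPM, 3.21-fold and 3.55-fold. In the clusters with miR-24 and miR-27a, miR-23a-3p rose from 14534 and 6452 RPM to 24000 and 13924 RPM and miR-23b-3p from 9740 and 5502 RPM to 22696 and 13167 RPM. Among the 13 miRNAs of the macrophage list, 12 were tested, of which 4 (33.3%) were called higher and 4 (33.3%) lower. The shares were 13.1% and 5.95% of mature miRNAs, and 6.92% and 15.6% of all features. Those called lower include miR-21a-5p and miR-22-3p, which edgeR did not call.

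Other named miRNAs had their largest ratios at lower levels. miR-423-5p rose from 138 and 91.7 RPM to 1061 and 809 RPM, 7.69-fold and 8.82-fold (adjusted p = 6.6e-06). miR-1981-5p, of 24 nt, rose from 21 and 9.85 RPM to 139 and 77.5 RPM (adjusted p = 4.3e-05). miR-26a-5p, among the 10 most abundant miRNAs, had 11911 and 5903 RPM in total RNA and 15869 and 6753 RPM in size-selected RNA and was not called (log2 ratio 0.30, SE 0.26, adjusted p = 0.407).

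Grouped by mature length, the median ratio of miRNAs with at least 100 RPM was higher with each base from 21 to 24 nt in both pairs, but not outside that range. The 25 miRNAs of 21 nt had median log2 ratios of -0.24 and -0.08 in the control and withdrawal pair, the 91 of 22 nt had -0.02 and 0.44, the 33 of 23 nt had 0.51 and 0.50 and the 3 of 24 nt had 1.65 and 2.05. The 2 of 20 nt had -0.03 and -0.49, the 1 of 25 nt had 0.91 and 0.65 and the 2 of 26 nt had 0.07 and -0.43, with too few members to compare. Spearman's rho between length and the mean log2 ratio was 0.30 across the 159 miRNAs of this level with a sequence, and 0.34 across the 147 outside the let-7 family. These correlations are descriptions across miRNAs that share the 4 libraries. The other seed families of 5 or more members differed from let-7. The miR-17 family of 6 had medians of 0.33 and -0.10, the miR-15/16 family of 6 had 0.02 and 0.01, the miR-30 family of 5 had -0.16 and 0.00, and none of their members was called. The 5 members of the miR-297/466 seed family were lower in both pairs, with medians of -1.33 and -1.13 and 3 of them at least 2-fold lower in both, but none was called. The family of miR-34 and miR-449 had medians of -0.31 and 0.50, with 1 of 5 called higher. Of smaller families, the 4 members of the miR-24 seed were lower in both pairs (medians -0.55 and -1.35), with 1 called.

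Among snRNAs, those alike to U5, an RNA of the spliceosome, stood furthest below total RNA. Gm22265 fell from 439 and 362 RPM to 12.6 and 22.0 RPM (34.9 and 16.4 times lower, adjusted p = 1.8e-11), and Gm25099, the copy with the most reads, from 1243 and 988 RPM to 65.3 and 96.3 RPM. All 10 U5-like features tested were called lower, 2 of which reached the minimum only in total RNA, with median log2 ratios of -4.18 and -3.36, against 15.6% of all features called lower. These copies are alike and can share reads, so that they are not independent. U1 and U2, which have even more copies, had medians nearer to 0. The 46 U1-like features had medians of -0.79 and -0.03 and the 12 U2-like features of -0.42 and -0.08, and none of these 58 was called. Within the U1-like class, 8 copies near Rnu1b1 or Rnu1b6 were at least 2-fold lower in both pairs, with adjusted p from 0.082 to 0.13, such as Rnu1b1 with 27.9 and 67.7 RPM in total RNA and 11.7 and 26.5 RPM in size-selected RNA.

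The RNAs of the minor spliceosome went opposite ways. Rnu11 (U11) fell from 123 and 85.6 RPM to 14.9 and 23.0 RPM. Rnu12 (U12) had 36.0 and 349 RPM in total RNA and 81.1 and 1083 RPM in size-selected RNA, 2.25-fold and 3.10-fold, but missed the threshold (adjusted p = 0.081). Of 93 snRNA features, 2 were called higher and 18 lower (2.15% and 19.4%, beside 6.92% and 15.6% of all features), and both of the former and 7 of the latter reached the minimum on that side only. Gm24265, the third most abundant snRNA feature in the selected libraries, had 34.8 and 281 RPM in total RNA and 37.7 and 112 RPM in size-selected RNA (adjusted p = 0.50).

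snoRNAs were the type most often called lower, 90 of 222 features (40.5%, beside 15.6% of all features), of which 20 reached the minimum only in total RNA. Only 6 (2.7%, beside 6.92%) were called higher. Snord110 fell from 459 and 325 RPM in total RNA to 11.7 and 16.8 RPM in size-selected RNA, 39.4 and 19.3 times lower (log2 ratio -4.69, SE 0.60, adjusted p = 1.9e-12). Gm22744, a snoRNA on chromosome 19, fell from 2387 and 1477 RPM to 76.8 and 101 RPM, 31.1 and 14.6 times lower. Snord72 fell from 746 and 782 RPM to 28.7 and 49.8 RPM. In these 3 both selected libraries were far below both total RNA libraries.

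The C/D box and H/ACA box snoRNAs, which direct methylation and pseudouridylation of rRNA, differed in how many were called. Of 78 features with a Snord symbol (C/D box), 42 (53.8%, beside 15.6% of all features) were called lower and none higher. Their medians were -2.15 and -1.49, and 4 of the 42 reached the minimum only in total RNA. Of 23 with a Snora symbol (H/ACA box), 5 (21.7%, nearer to the 15.6% of all features) were called lower, with medians of -0.54 and -0.44. The 1 called higher (4.35%, beside 6.92% of all features), Snora41, reached the minimum only in size-selected RNA. When snoRNAs were instead sorted by their own letters, 98 of 222 held TGATGA in the first 20 bases and CTGA in the last 20, read on the transcript's own strand. Of these 98, 50 were called lower and none higher, and 6 of the 50 reached the minimum only in total RNA. Another 41 held ACA 3 bases before the 3′ end, of which 6 were called lower and 1 higher, beside 15.6% and 6.92% of all features. Of these, 2 of the 6 reached the minimum only in total RNA and the 1 only in size-selected RNA. The median length was 76.5 nt in the first class and 134 nt in the second. Not all C/D box snoRNAs were called lower. Snord49a, the most abundant snoRNA of the selected libraries, was lower in both pairs but was not called (adjusted p = 0.426). It had 1675 and 3271 RPM in total RNA and 974 and 2909 RPM in size-selected RNA. Snord118, the U8 snoRNA, was higher in both pairs and not called, with 466 and 889 RPM against 484 and 2485 RPM (adjusted p = 0.284). Gm24452, next in abundance, had 1866 and 2536 RPM in total RNA and 1677 and 634 RPM in size-selected RNA (adjusted p = 0.067).

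U3, a long C/D box snoRNA needed for the processing of the pre-rRNA, was the exception among the classes. All 11 U3-like features were higher in the selected library in both pairs, and their medians were 0.95 and 1.77. Of the 11, 5 were called higher, against 6.92% of all features. Gm25419 rose from 4.85 and 22.3 RPM to 29.3 and 124 RPM, and Gm22865 from 5.20 and 22.3 RPM to 29.5 and 124 RPM. The annotated Rnu3a had 49.7 and 137 RPM in total RNA and 83.2 and 171 RPM in size-selected RNA. Neither it nor any other of the 5 features with an Rnu3 symbol was called. The U3-like features can also share reads, and Gm25419 and Gm22865 align over 214 columns, gaps included, at 81.3% identity.

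**Figure D4:**
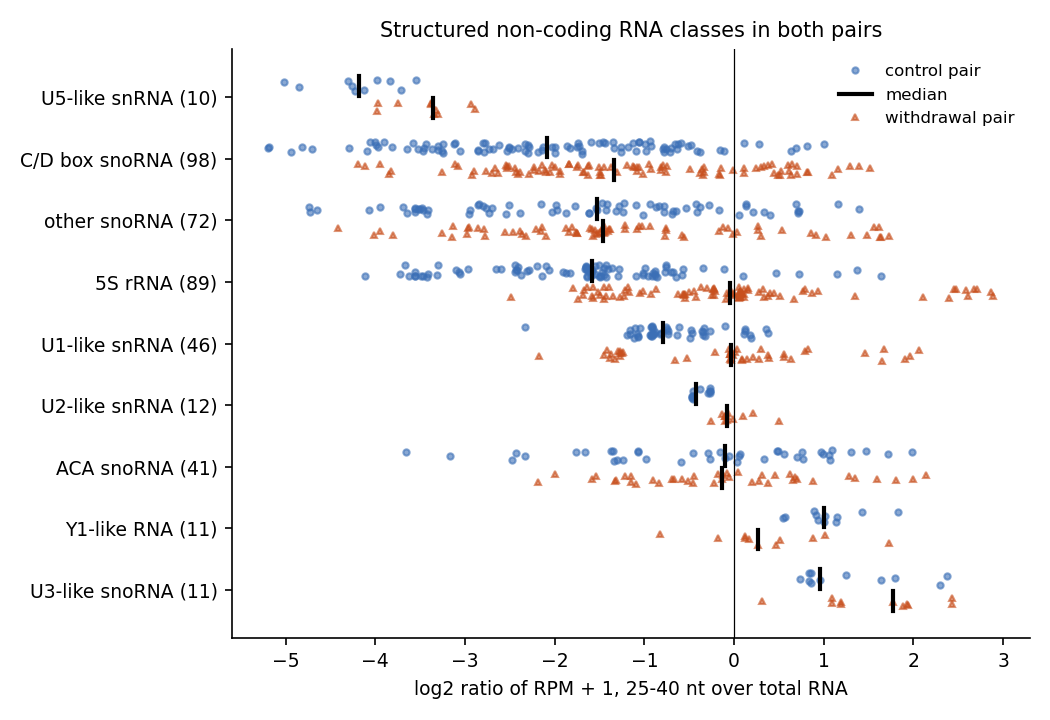
Log2 ratio of RPM + 1 in 25–40 nt RNA over total RNA for features of 9 classes of structured RNA, with the number of features in brackets. Circles are the control pair, triangles are the withdrawal pair, and bars are the medians. The U5-like features lie between -5.02 and -2.89 in both pairs and the U3-like features lie above 0 in both.

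The 5S rRNA, the small RNA of the large ribosomal subunit, has many annotated copies, of which 89 were tested. Their median log2 ratio was -1.59 in the control pair and -0.04 in the withdrawal pair, and 24 (27.0%) were called lower and 5 (5.62%) higher, beside 15.6% and 6.92% of all features. Of the 30 rRNA features called lower, 21 reached the minimum only in total RNA, and all 8 called higher reached it only in size-selected RNA. n-R5s2 fell from 1395 and 524 RPM to 261 and 252 RPM, and n-R5s194 from 791 and 476 RPM to 125 and 160 RPM. n-R5s33 had 1239 and 236 RPM in total RNA and 70.4 and 159 RPM in size-selected RNA, so that it was 17.6 times lower in control cells and 1.48 times lower after withdrawal. n-R5s130 was lower in the selected control library (171 against 69.1 RPM) and higher in the selected withdrawal library (146 against 268 RPM).

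tRNAs were 368 of the features, of which 16 were called higher and 21 lower (4.35% and 5.71%, below the 6.92% and 15.6% of all features), with medians of 0.42 and 0.22. By the 2-fold rule 40 of the 368 were higher and 10 lower in both pairs, beside 8.96% and 15.8% of all features. Since tRNA genes with the same anticodon share reads, they were also summed by anticodon, and of 50 anticodons tested 6 were called higher and 5 lower. The tRNAs of valine took the most tRNA reads in total RNA and were lower in size-selected RNA. ValAAC fell from 18669 and 73979 RPM to 7724 and 40109 RPM, 2.42 and 1.84 times lower (adjusted p = 1.1e-06). ValCAC fell from 15212 and 75050 RPM to 7271 and 43884 RPM and ValTAC from 2790 and 49731 RPM to 1637 and 10668 RPM. The ValAAC gene with the most reads, chr13.tRNA986, fell from 9425 and 36054 RPM to 3379 and 14618 RPM. The 3 valine anticodons together took 36.0% and 47.1% of tRNA reads in total RNA and 18.9% and 22.9% in size-selected RNA. HisGTG (735 and 2112 RPM to 314 and 506 RPM) and HisATG were the other anticodons called lower.

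The anticodons called higher belonged to several amino acids. SerGCT rose from 509 and 1510 RPM to 2441 and 4796 RPM, 4.79-fold and 3.18-fold (adjusted p = 0.00051), and SerCGA and ThrTGT were also called higher. GluCTC rose from 4607 and 14277 RPM to 9222 and 36030 RPM, so that its share of tRNA reads was 4.52% and 3.38% in total RNA and 10.5% and 8.71% in size-selected RNA. LeuCAG rose from 2986 and 24888 RPM to 4210 and 54600 RPM, while its most abundant gene in the selected libraries (chr3.tRNA1026) was not called alone, with 327 and 336 RPM in the control pair and 5348 and 12673 RPM in the withdrawal pair (adjusted p = 0.299). ArgCCG was called higher, with 4573 and 27707 RPM in total RNA and 4488 and 69059 RPM in size-selected RNA, so that its 2 pairs did not share a direction. Nearly all of it lay on 1 gene (chr11.tRNA945), whose call was lost in edgeR (adjusted p = 0.147). AsnGTT had 924 and 948 RPM in the control pair but 12934 and 2889 RPM in the withdrawal pair, and was not called (adjusted p = 0.062).

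A list of 10 anticodons known as donors of 5′ tRNA fragments cut in the anticodon loop was described beside the rest. The 108 tRNA features of these donors had medians of -0.69 and -0.02, with none called higher and 13 lower, and the other 260 tRNA features had medians of 0.59 and 0.40, with 16 called higher and 8 lower, against 6.92% of all features called higher and 15.6% lower. By the 2-fold rule the donor features were divided, with 10 higher and 9 lower in both pairs. Of the other 260 features, 30 were higher and 1 lower by that rule, against 8.96% and 15.8% of all features. Among the donors GluCTC rose while ValAAC, ValCAC and HisGTG fell. GlyGCC, a well known donor, had 15670 and 23727 RPM in total RNA and 9941 and 23049 RPM in size-selected RNA and was not called (adjusted p = 0.263).

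**Figure D5:**
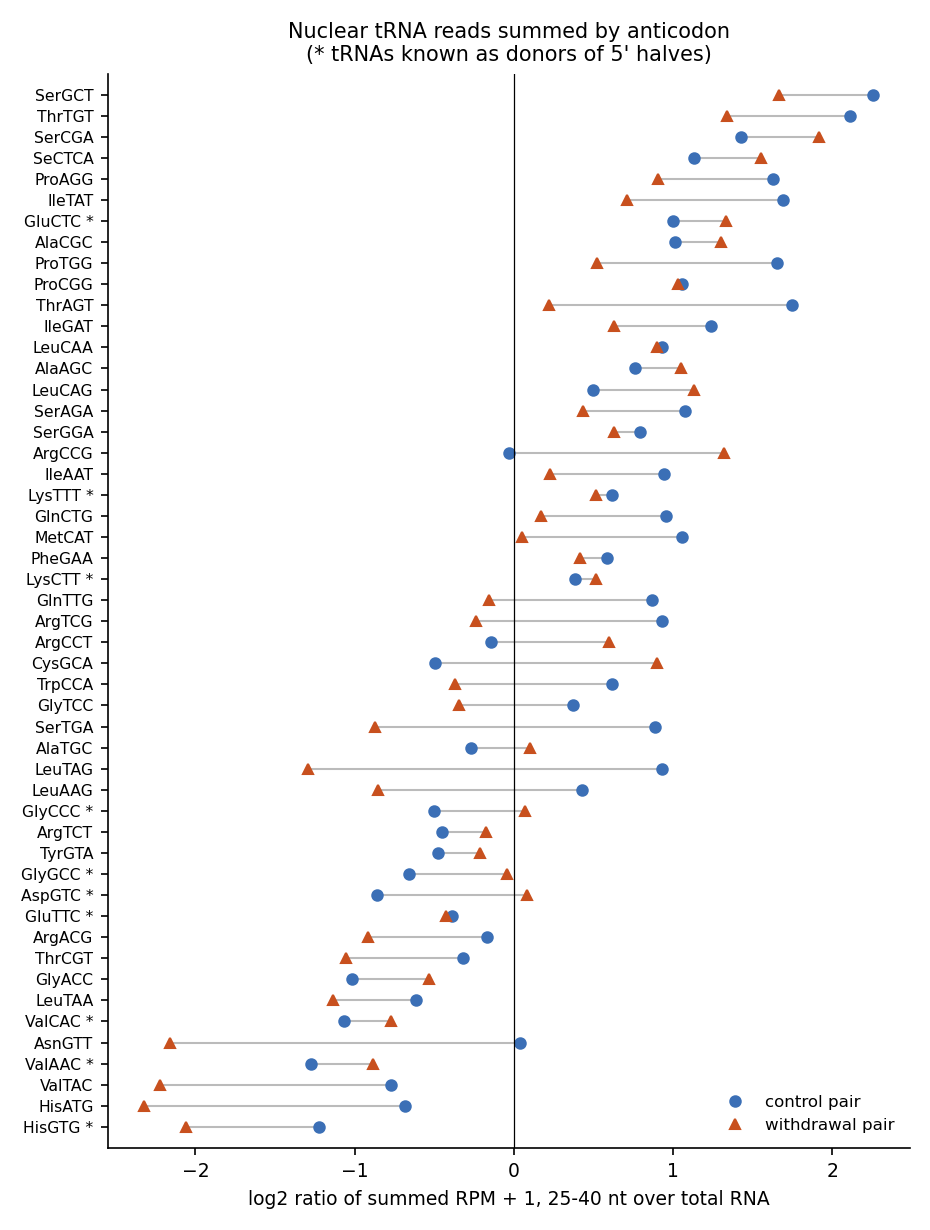
Log2 ratio of summed RPM + 1 in 25–40 nt RNA over total RNA for the 50 tested anticodons, ordered by the mean of both pairs. Circles are the control pair, triangles are the withdrawal pair, a line joins both, and an asterisk marks the donors of 5′ fragments. SerGCT has the highest mean and HisGTG the lowest, and the triangle of AsnGTT lies at -2.16 while its circle lies near 0.

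All 21 mitochondrial tRNAs that were listed passed the minimum, with medians of -0.04 in the control pair and -1.17 in the withdrawal pair. Of these, 3 were called lower (14.3%, near the 15.6% of all features) and none higher, and 11 were lower in both pairs. mt-Tn (asparagine) fell from 231 and 4046 RPM to 96.6 and 360 RPM (adjusted p = 0.00034), and mt-Ts2 (serine) from 557 and 1093 RPM to 130 and 278 RPM. The third was mt-Tr (arginine), with 18.7 and 155 RPM in total RNA and 16.0 and 17.3 RPM in size-selected RNA, 8.92 times lower after withdrawal and 1.17 times lower in control cells. mt-Tr was not called in edgeR (adjusted p = 0.175). mt-Tp (proline) had 51.1 and 826 RPM in total RNA and 174 and 1753 RPM in size-selected RNA, 3.40-fold and 2.12-fold, and missed the threshold (adjusted p = 0.064). mt-Tm (methionine), with 397 and 385 RPM in the control pair, had 6930 and 1454 RPM in the withdrawal pair (adjusted p = 0.067). mt-Tg (glycine) had 306 and 281 RPM in the control pair and 3313 and 1370 RPM in the withdrawal pair.

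The pairs differed most for 6 features with at least 100 RPM. mt-Td, mt-Ta and mt-Tr had the lowest ratios after withdrawal relative to control cells, and Gm25878, Snord80 and n-R5s33 had the highest. Gm25878, a snoRNA, had 573 and 14.7 RPM in total and size-selected RNA of control cells and 256 and 134 RPM after withdrawal. Snord80 had 728 and 76.1 RPM in control cells and 440 and 634 RPM after withdrawal. With 1 library of each kind the difference between pairs could not be tested.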

How the data were processed

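Small RNA of mouse BMDMs was sequenced by the study in 8 libraries, 4 of them on SOLiD. SOLiD reads were mapped by the authors to mm10 with LifeScope, and the deposited values are reads per 1000000 reads on listed features (RPM, written with decimal commas). The 4 libraries held 5772453 (control, total), 12178454 (withdrawal, total), 8910972 (control, 25–40 nt) and 4039837 reads (withdrawal, 25–40 nt). All 10652 RPM values above 0 were whole multiples of 1 read (0.0821 to 0.248 RPM) within 0.01 reads. Ion Proton reads were trimmed by the authors (cutadapt 1.2.1), aligned at up to 10 places (Bowtie2 2.2.4) and deposited as raw counts per feature, used here only for side values. How reads that fit several gene copies were counted, and the use of strand, is not given in the sources used here.

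The groups came from the sample labels. log2(RPM + 1) was fitted with limma 3.58.1 in R 4.3.3 (terms for treatment and fraction, empirical Bayes with an intensity trend) over features with at least 10 RPM in 1 or more libraries, with Benjamini-Hochberg adjustment and a threshold of 0.05. A log2 ratio is on the log2(RPM + 1) scale, which understates changes of low features, while an n-fold value is the ratio of RPM. The limma p-values cover only these 4 libraries and rest almost wholly on the spread shared by features of a like level. edgeR 4.0.16 and DESeq2 1.42.0 were run on the recovered reads as alternatives, as were other pseudocounts, filters, scalings, tRNA summed by anticodon, no treatment term and each library left out. The limma fit was also run on simulated counts with no treatment effect and the same dispersion for all features. That run does not show how the fit behaves on the present libraries. Tables, intervals and figures used Python 3.11.15, pandas 2.3.3, numpy 2.4.6, scipy 1.17.1 and matplotlib 3.10.9.

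Named features were RNY1, RNY3 and misc_RNA of at least 1000 RPM, the 10 most abundant mature miRNAs, the 5 largest rises and falls by mean log2 ratio among features of at least 100 RPM with 1 direction, the 3 most abundant selected features of each other type, and the 3 with the largest difference between pairs each way. Others were named from lists or after their values were seen (Rpph1, Snord72, miR-22-5p, miR-652, let-7k, Gm25271 and the minor spliceosomal RNAs). The members, the gene lists and the markers were chosen with earlier results of these data known. Of 1561 Ensembl identifiers 1511 matched the GENCODE annotation. A mature sequence was found for 316 of 336 miRNAs, and 3 whose sources differed were left out of length and seed groups. Classes of snRNA, snoRNA and Y RNA required 80% identity over 80% of a named RNA in blastn 2.17.0. The sequence of 1 snRNA is not reported here.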

Additional observations from a re-analysis of the deposited data

Results flagged for a closer look

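In 55 of the 1228 features the control pair differed one way and the withdrawal pair the other, by at least 0.5 on the log2 scale in each. These included 4 of the 46 named features, and 2 of the summed anticodons did so too. The log2 ratio of 25–40 nt over total RNA was 0.62 in the control pair and -3.53 in the withdrawal pair for mt-Td (mitochondrial tRNA of aspartate), and 1.13 and -1.75 for mt-Ta (alanine). It was -3.24 and 0.53 for the C/D box snoRNA Snord80 and -1.29 and 0.87 for the 5S rRNA copy n-R5s130. For summed tRNAs it was 0.89 and -0.87 for SerTGA and 0.93 and -1.29 for LeuTAG. These differences were not tested, since each value rests on 1 library.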

How the results depend on the processing

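No paired analysis was possible because the labels give the SOLiD groups replicate number 1 only, so that replicate numbers form no block. That limit concerns pairing by replicate number only. Pairing within treatment was used in the main fit through its treatment term. The log2 ratio of that fit is the mean of the control pair and the withdrawal pair.

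Counts of features called higher and lower (85 and 191) became 122 and 113 when centred, 11 and 17 when scaled to reads outside miRNA, 65 and 104 with at least 10 RPM in all 4 libraries, 177 and 165 in DESeq2 and 113 and 167 in edgeR. They became 0 and 0 without the treatment term, where 18 and 107 had an unadjusted p under 0.05, and 0 to 0 when any 1 library was left out, in fits that also drop the treatment term. The cause was not tested. The 2-fold counts (110 and 194) became 61 higher with a pseudocount of 10 RPM, 70 higher and 100 lower with the filter in all 4 libraries, 197 higher when centred and 184 higher when scaled outside miRNA.

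Type medians of the mean log2 ratio moved by more than the spread between pairs in some settings. When centred they were 0.50 (mature miRNA), 0.78 (hairpins), 0.73 (misc_RNA), -0.80 (snoRNA) and 0.74 (tRNA). When scaled outside miRNA they were 0.73 (hairpins), 0.69 (misc_RNA) and 0.67 (tRNA). With no filter they were -0.035 (hairpins), -0.0096 (misc_RNA) and -0.51 (snoRNA), with the filter in all 4 libraries 0.15 (hairpins) and with a pseudocount of 10 RPM -0.79 (snoRNA). A reversal of a single named feature was counted only where the main or the alternative fit called it, so that uncalled features could change sign uncounted. Of 500 values, 50 lost and 16 gained the call and none reversed in the 11 settings with the treatment term. Without it, or with a library left out, 4 of 230 values reversed: RNY1 was at -0.95 and the ArgCCG gene chr11.tRNA945 at -0.68 without the control total library, and at -0.63 and -1.38 without the size-selected withdrawal library. Treatment and fraction are not separated in these fits, and RNY1 was 3.08 and 2.44 higher after withdrawal on the log2 scale in total and size-selected RNA. Over the libraries left out, RNY1 ranged from -0.95 to 2.13 and the ArgCCG gene from -1.38 to 2.64.

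Counting error is small for the shares by type. It is larger for called features with few reads, such as Gm25271 with 2 and 5 reads in total RNA of control and deprived cells. The 2 libraries a side limit both.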

Other observations

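The mature miRNAs that mark other cell types had similar ratios to each other between most of the libraries, as given above, with a wider spread in size-selected RNA of deprived cells. Further miRNAs had a like profile. With all 3 log2 ratios (both pairs, and withdrawal over control in total RNA) within 0.2 of the medians of the markers there were 27 of 336 mature miRNAs, a group formed after the values were seen and given as a description. It held 6 of the markers and, among others, miR-205-5p (4790 and 3832 RPM in total RNA, 3547 and 5586 RPM in size-selected RNA), miR-200b-3p (1844 and 1452 RPM, then 1430 and 2060 RPM), miR-429-3p, miR-34b-5p, miR-34c-5p, miR-31-5p, miR-375-3p and miR-486-5p. Together they took 1.66% and 1.34% of reads in total RNA and 1.26% and 1.94% in size-selected RNA. The 18 of them listed for the Ion Proton run had from 0.041 to 10.1 CPM there. Without these 27, the medians over the other 309 mature miRNAs were 0.01 in the control pair and 0.33 in the withdrawal pair.

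Among the 157 mature miRNAs with at least 100 RPM that both tables list, 46 were at least 50 times lower in the Ion Proton run (in CPM against RPM), miR-223-3p and miR-19b-3p among them. Across these 157, log2 levels in the Ion Proton libraries had a Pearson r of 0.45 to 0.47 with the SOLiD total RNA libraries, 0.63 to 0.64 with the control size-selected library and 0.56 to 0.58 with the size-selected withdrawal library. Platform, kit and cultures differed together between the runs and cannot be told apart.

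Precursor hairpins of miRNAs, which are longer than the selected window, were 40 of the features, with 6 called higher and 5 lower (15% and 12.5%, beside 6.92% and 15.6% of all features), of which 3 and 4 reached the minimum on that side only. Mir222 rose from 193 and 90.7 RPM to 578 and 466 RPM (adjusted p = 0.0067), and Mir5099 fell from 169 and 700 RPM to 30.7 and 77.7 RPM (adjusted p = 9.2e-05). Hairpins and mature arms have separate values, such as 193 RPM for Mir222 and 5639 RPM for miR-222-3p in control total RNA. Which part of a hairpin its reads covered is not given in the sources used here.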
